A study of Mus musculus with 2 samples.

Results

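The enzymes that make and use glutathione, together with other classical targets of the transcription factor Nrf2, were followed in mouse fibroblasts with and without endoplasmic reticulum (ER) stress. The group holds 10 genes: Gstm1, Gstm2, Gstm3, Gstm5, Gsta4, Gclc, Gclm, Nqo1, Txnrd1 and Gsr. Measured were all non-control spots that carry one of these gene names on both arrays, which gave 13 probes and 22 spots, out of 41174 probes and 43379 spots for transcripts with 28095 gene names. All 10 accessions behind these probes still carry the same symbol in RefSeq.

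Both samples were NIH3T3 cells, an established line of mouse embryonic fibroblasts, grown on 4 plates in medium with 10% serum. Control cells were left untreated, and the other culture received 10 µM thapsigargin for 3 h. Thapsigargin blocks the calcium pump of the ER. Lysates were run on a 10 to 40% sucrose gradient, and RNA was pooled into a polysome fraction (P), labelled with Cy3, and the lighter part of the gradient, which holds free RNA and monosomes (FM), labelled with Cy5. Both groups received cycloheximide shortly before lysis, which freezes ribosomes on mRNA. Each condition was represented by 1 two-colour array that held RNA pooled from 3 preparations, so that no difference has a replicate check and no test or p-value is given.

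Glutathione is a small thiol that cells use to neutralise oxidants and reactive chemicals. It is made in a first, rate-limiting step by glutamate-cysteine ligase, which consists of a catalytic subunit (Gclc) and a modifier subunit (Gclm), it is conjugated to foreign compounds by the glutathione S-transferases, and its oxidised form is recycled by glutathione reductase (Gsr). In unstressed cells the adaptor Keap1 holds Nrf2 (gene Nfe2l2) for degradation. When Nrf2 escapes, it pairs with small Maf proteins and binds antioxidant response elements in the promoters of these enzymes, of the quinone reductase Nqo1 and of thioredoxin reductase Txnrd1. ER stress activates the kinase PERK, which phosphorylates eIF2α and slows translation initiation and is also known to act on Nrf2.

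The measure of translation efficiency was log2 P/FM, in which the polysome signal is divided by the free plus monosome signal, and the measure of abundance was A, for which the log2 signals of P and FM are averaged. A value of 0 in log2 P/FM means equal signal in both fractions. Changes are thapsigargin minus control on the log2 scale, and no normalization was applied. The nearest substitutes for an error are the median SD between spots of the same probe, which was 0.10 for the change in log2 P/FM over 109 probes, and between different probes of the same accession, which was 0.32 over 3438 accessions. For the change in A these SDs were 0.12 and 0.18. Neither covers how preparations or labellings differ. The signals of different probes are not set against each other, since probes differ in brightness. Their log2 P/FM is compared, although it also differed between probes of the same accession. The median SD was 0.29 in control cells and 0.28 after thapsigargin.

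Between 42.5% and 46.3% of the spots were well above background in each channel of the 2 arrays, no spot was saturated, and none of the 153 negative control spots reached A of 4.5, the lower limit for the comparisons. All 13 member probes passed that limit and were well above background in both channels on both arrays. Of the markers checked for the labelled cell type, 8 of 8 fibroblast genes were detected on both arrays, against 0 of 3 endothelial genes, 1 of 4 epithelial genes on the control array and 0 of 4 on the other, and 2 of 4 blood genes (Cd3e and Cd68, with A of at most 6.06). The part of those signals in the values below was not tested. The 10 spike-in probes were lower in log2 P/FM on the thapsigargin array by a median of 2.44 on the log2 scale, with changes between -2.67 and -2.16. Scaling to them turns the sign of most changes in log2 P/FM, and the settings that turn a member's direction are given with its values.

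Each probe was a 60-mer, assigned to a member by the gene name on the array. The probes of Gsta4 and Gclm are shown whole because each of them joins exons: the Gsta4 probe spans 1173 bases of the genome at chr9:78046172-78047344 and the Gclm probe 2636 bases at chr3:121962174-121964809, both on the plus strand of mm9 (NCBI build 37), so that they match spliced mRNA.
Gsta4 probe: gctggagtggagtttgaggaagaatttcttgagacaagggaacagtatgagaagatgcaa
Gclm probe: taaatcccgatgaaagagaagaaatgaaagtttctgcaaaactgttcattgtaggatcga

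The Gstm genes are neighbours on chromosome 3 that arose from each other by duplication, and the last 30 bases of a probe of each are shown. Probes were compared only with other probes, so these ends cannot show how far the mRNAs are told apart. Capitals mark AATAAA, the usual polyadenylation signal, which stands at base 45 of the 60 in both probes that hold it. The Gstm1 probe lies at chr3:107815180-107815239, the Gstm2 probe at chr3:107784622-107784681 and the Gstm3 probe at chr3:107766730-107766789, all on the minus strand, and the Gstm5 probe at chr3:107701101-107701160 on the plus strand (mm9).
Gstm1, first probe, 3′ end: tctgtctcgtctacAATAAAgtctgaaaca
Gstm2, 3′ end: cccatttggttctcAATAAAgtgtgaatca
Gstm3, 3′ end: agtgacggccctccctagagttaccctgaa
Gstm5, 3′ end: tatatttgagcccaagtgtctggatgagtt

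The longest run of bases shared by probes of different members was 9, between Gstm1 and Gstm2 and between Gstm5 and Txnrd1. No probe of another gene on the array held a run of 20 bases of any member probe. Whether mRNAs of closely related transferases bind these probes was not tested. The second Gstm1 probe lies at chr3:107815564-107815623. Of the other members, the probe of Gclc lies at chr9:77641296-77641355, that of Nqo1 at chr8:109912440-109912499 and that of Txnrd1 at chr10:82360230-82360289, while the 3 Gsr probes lie within chr8:34807813-34808458, where the first and the third share a run of 39 bases.

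The member mRNAs had a high share of their signal in polysomes in growing cells and a lower one after thapsigargin, except that after scaling to the spike-in probes 12 of 13 probes were higher. In control cells log2 P/FM lay between 0.33 and 2.37 over the 13 probes, with a median of 1.38, while the 14657 coding probes that passed the limit on both arrays had a median of 0.30. After thapsigargin the members lay between -1.23 and 0.76 with a median of 0.22, and all coding probes had a median of -0.24. The median change was -1.60 for the members and -0.64 for all coding probes, and 12 of 13 member probes were lower, against 67.8% of all coding probes. Relative to the median of all coding probes, which each scaling of whole arrays shifts along with the members, 11 of 13 member probes changed downwards, and Gclc and Txnrd1 were the exceptions. With loess or the processed signals of the scanner software these were 9 of 13, with Gstm1 and Gstm3 as further exceptions, and with normexp correction or without background subtraction 12 of 13, with Gclc as the exception. The set of all coding probes differed between settings. With normexp correction or without background subtraction all 26723 coding probes passed the limit on A, and with the processed signals 18035 did.

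**Figure D1:**
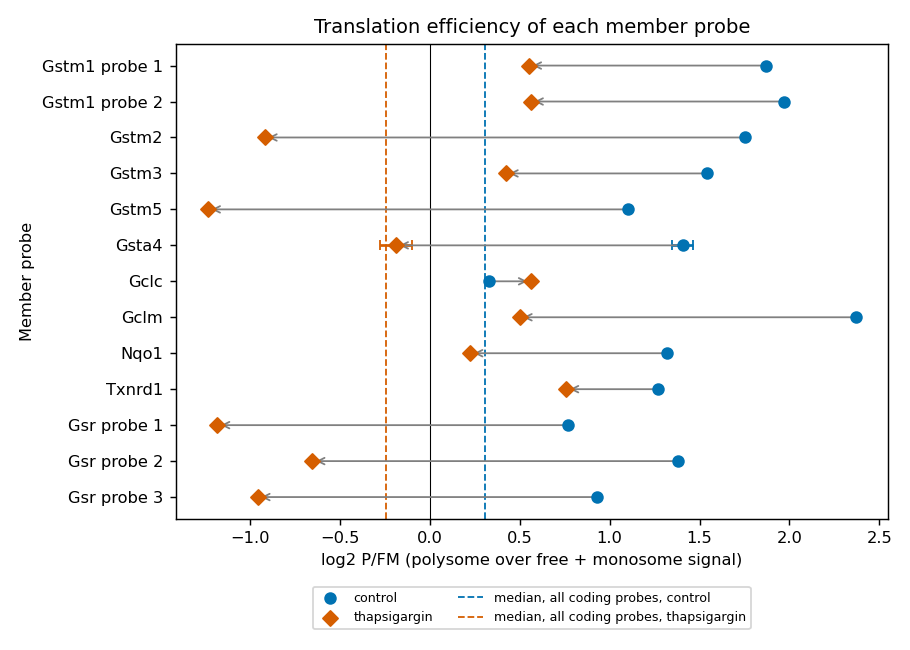
log2 P/FM of the 13 member probes in control cells (circles) and after thapsigargin (diamonds), with an arrow from control to thapsigargin; bars on Gsta4 are the SD over its 10 spots, and dashed lines are the medians of all 14657 coding probes. Every arrow but that of Gclc points to the left without normalization, while scaling to the spike-in probes leaves only Gstm2 lower.

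By the thresholds of the study, 11 of 13 member probes (84.6%) were sensitive, with a change in log2 P/FM of -0.8 or lower, beside 45.2% of all coding probes. No member was resistant, a class that needs at least 0.8 in log2 P/FM in each condition and held 3.54% of all coding probes, and none was inducible, a class that needs 0 or lower in control cells with a gain of at least 1 and held 11.0%. Sensitive members numbered 7 with normexp background correction (all coding probes 13.3%), 7 after loess (27.1%) and 0 after scaling to the spike-in probes (0.853%). In A, no member was higher by 1 or more, beside 13.4% of all coding probes, and 4 member probes (30.8%) were lower by 1 or more, beside 0.628%. Those 4 probes belong to Gstm1, Gstm3 and Gsta4. With normexp correction 5 member probes were lower by 1 or more, beside 61.3% of all coding probes. The shares with normexp correction are of 26723 coding probes, since all of them then pass the limit on A. The total RNA labelled per array was fixed, so that A gives a relative level and not an amount per cell. In lysates of whole cultures, fewer cells with these mRNAs and less of them per cell cannot be told apart. The paper labelled P and FM in the proportions recovered from the gradients. P held more RNA than FM in control cells, and FM more than P under stress.

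The signals of the separate fractions split the members into 3 kinds. The part of the unequal labelling of P and FM in this split was not tested. In Gstm1, Gstm3 and Gsta4, both fractions held less signal after thapsigargin (4 of 13 probes, 30.8%, beside 4.76% of all coding probes). In Gstm2, Gstm5, Gclm, Gsr and Nqo1, P was lower and FM higher (7 probes, 53.8%, beside 42.1%). In Gclc and Txnrd1, neither fraction was lower (2 probes, 15.4%, beside 42.7%). No member had higher P with lower FM, beside 10.4% of all coding probes. The first kind kept its members under each of the 12 alternative settings for signals, although other members joined it under 4 of them. Its share of all coding probes then ranged up to 75.5%, with normexp correction, where all 26723 coding probes passed the limit on A. The other kinds held less firmly: the higher FM turned for Gsr, Nqo1, Gclc and Txnrd1 under 2 to 4 settings each, for Gclm with normexp correction and for Gstm5 with processed signals and spike-in scaling.

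**Figure D2:**
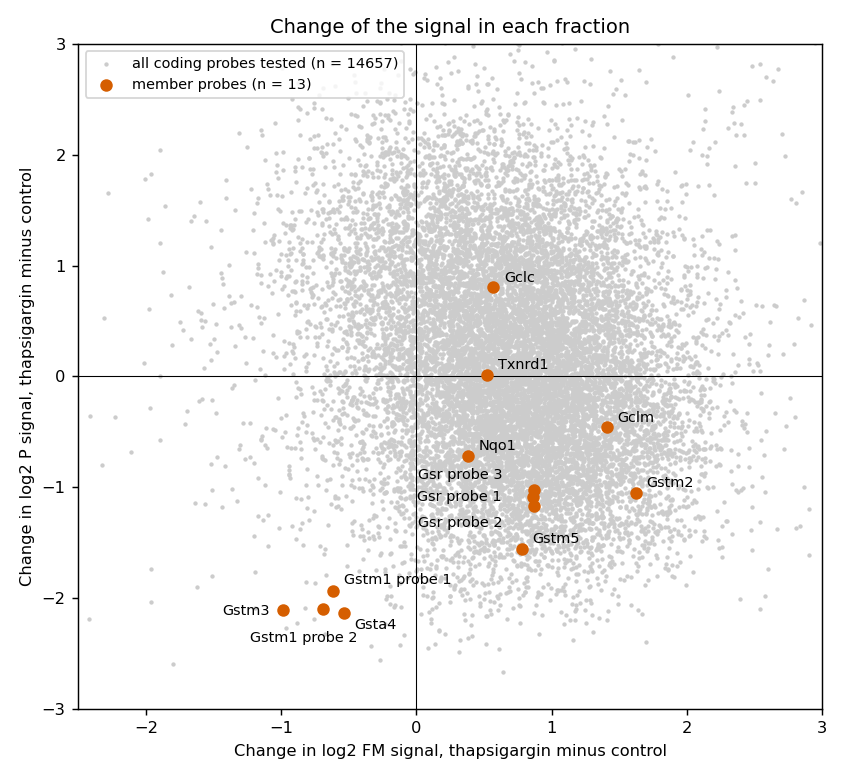
Change of the P signal (vertical) against change of the FM signal (horizontal), both log2, thapsigargin minus control, for the 13 member probes and, in grey, all 14657 coding probes, of which 74 lie outside the axes. Gstm1, Gstm3 and Gsta4 sit together at the lower left, below 0 on both axes under every setting run, while the other members, as plotted without normalization, lie to the right of 0, where several cross an axis under other settings.

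Among the glutathione S-transferases, Gstm1 and Gstm3, both of the mu class, held less signal in both fractions. The first Gstm1 probe read 12167 in P and 3331 in FM in control cells, and 3179.5 in P and 2169.6 in FM after thapsigargin. The second Gstm1 probe read 1089 and 278 in control cells and 254 and 172 after thapsigargin. On both probes every thapsigargin signal was below the control signal of the same fraction, 3.83-fold and 4.29-fold in P and 1.54-fold and 1.62-fold in FM.

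For Gstm1 as a gene, log2 P/FM was 1.92 in control cells and 0.56 after thapsigargin, a change of -1.36 ± 0.06 (SD, n = 2 probes), and A changed by -1.34 ± 0.08. The change in log2 P/FM was -0.52 with the processed signals and -0.34 after loess, and became 1.08 after scaling to the spike-in probes. The change in A kept its sign under the settings run, and put the first probe at percentile 0.232 of all coding probes. In control cells log2 P/FM of Gstm1 stood at percentiles 95.1 and 96.2.

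Gstm3 read 5010.1 in P and 1722 in FM in control cells, and 1165 in P and 869.9 in FM after thapsigargin. P was thus 4.30-fold and FM 1.98-fold lower. Gstm3 had the largest loss of A among the members, at -1.54, percentile 0.0887 of all coding probes. Its log2 P/FM moved from 1.54 to 0.42, a change of -1.12, which was -0.57 after centring, 0.0836 with the processed signals, 0.03 after loess and 1.32 after scaling to the spike-in probes. The change in A did not turn sign under the settings run.

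Gsta4, the alpha-class enzyme known for conjugating the lipid peroxidation product 4-hydroxynonenal, was printed as 10 spots and gives the closest view of array error. In control cells P ranged from 847 to 1306 (median 1205) and FM from 329 to 492 (median 447). After thapsigargin P ranged from 219 to 288 (median 268) and FM from 267 to 335 (median 303). The P ranges were far apart, while those of FM overlapped.

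In Gsta4 log2 P/FM was 1.41 ± 0.06 in control cells and -0.19 ± 0.09 after thapsigargin (SD, n = 10 spots). The change was -1.60 ± 0.08, between -1.75 and -1.49 over the spots, and A changed by -1.34 ± 0.14. Gsta4 was thus lower on all of its 10 spots in both measures, by far more than the spread between spots. The change in log2 P/FM was -0.92 with the processed signals and -0.83 after loess, and it turned to 0.85 after scaling to the spike-in probes.

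Gstm2, which lies next to Gstm1, behaved otherwise. It read 4445 in P and 1319 in FM in control cells, and 2147 in P and 4061 in FM after thapsigargin. P was 2.07-fold lower and FM 3.08-fold higher, so that FM became the brighter fraction, whereas after scaling to the spike-in probes P was higher, with a change of 0.46 on the log2 scale. log2 P/FM went from 1.75 to -0.92, a change of -2.67, at percentile 3.73 of all coding probes. This was the largest change among the members, except that with the processed signals (-1.27) and after loess (-1.28) those of Gclm, Gsr and Gstm5 were larger. Gstm2 was the only member whose translation efficiency stayed lower after scaling to the spike-in probes, at -0.23. Its A changed by 0.29, which became -0.11 with the processed signals and -0.22 after centring each array on its median.

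Gstm5 read 1231 in P and 575 in FM in control cells, and 419 in P and 985 in FM after thapsigargin. As in Gstm2, P was lower (2.94-fold) and FM higher (1.71-fold), although the higher FM changed sign under some scalings, with changes between -0.16 and 0.78 on the log2 scale over all settings. log2 P/FM went from 1.10 to -1.23, the lowest value of any member after thapsigargin, with a change of -2.33 that was -1.45 with the processed signals, -1.42 after loess and 0.11 after scaling to the spike-in probes. A changed by -0.39.

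Among these neighbouring genes, the changes of -2.67 in Gstm2 and -2.33 in Gstm5 stood below -1.36 in Gstm1 and -1.12 in Gstm3 by more than the SD of 0.32 between probes of the same accession. Gstm1 and Gstm3 differed by 0.24, less than that SD. Gstm2 and Gstm5 differed by 0.34, but by less than the SD and in the reverse order with the processed signals (-1.27 and -1.45) and after loess (-1.28 and -1.42). In A the order was another, with Gstm2 at 0.29, Gstm5 at -0.39, Gstm1 at -1.34 and Gstm3 at -1.54, where the SD between probes was 0.18.

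**Figure D3:**
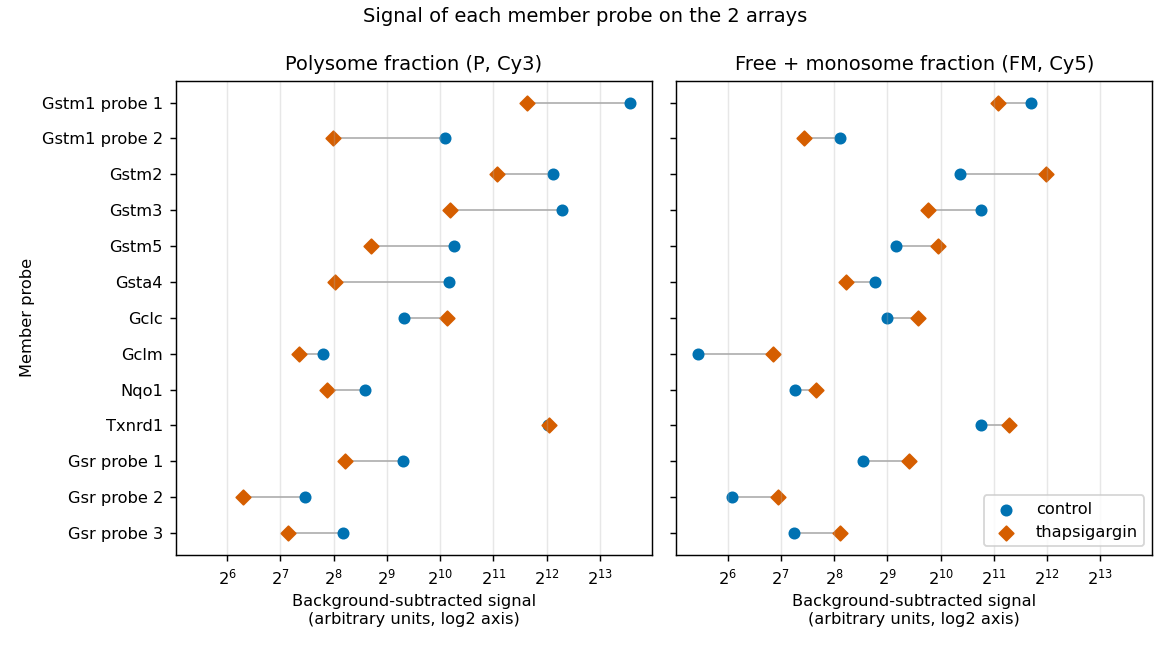
Background-subtracted signal of each member probe on a log2 axis, P on the left and FM on the right, in control cells (circles) and after thapsigargin (diamonds), from 1 array per condition. P was lower for 11 of the 13 probes, higher for Gclc and nearly equal for Txnrd1, while FM was lower only for Gstm1, Gstm3 and Gsta4; after scaling to the spike-in probes P is lower for 5 probes and FM for 11.

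The subunits of glutamate-cysteine ligase differed in the sign of their change in log2 P/FM, except with normexp correction and after scaling to the spike-in probes, where both were positive. Gclc, the catalytic subunit, read 643 in P and 513 in FM in control cells, and 1121 in P and 759 in FM after thapsigargin. Both fractions held more signal, 1.74-fold in P and 1.48-fold in FM, although FM was lower after centring (-0.21 on the log2 scale), with the processed signals (-0.24) and after scaling to the spike-in probes (-0.37). log2 P/FM was 0.33 in control cells, the lowest of the members, and 0.56 after thapsigargin. The change of 0.24 was smaller than the SD of 0.32 between probes but stood at percentile 73.3 of all coding probes, and no setting made it negative. It was 0.44 with normexp correction, 0.78 after centring, 1.04 with the processed signals, 1.13 after loess and 2.68 after scaling to the spike-in probes, all above that SD. The control level of Gclc was -0.15 with the processed signals and -0.27 after loess. A was higher by 0.68, the largest gain of any member.

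Gclm, the modifier subunit, read 224 in P and 43.3 in FM in control cells, and 162 in P and 115 in FM after thapsigargin. P was 1.38-fold lower and FM 2.65-fold higher, while after scaling to the spike-in probes P was higher (1.05 on the log2 scale) and with normexp correction FM was lower (-0.96). Its log2 P/FM was 2.37 in control cells, at percentile 98.8 of all coding probes, and rested on the FM signal of 43.3. The value was 1.499 without background subtraction, where Gstm1, Gstm2 and Gstm3 stood higher. With normexp correction it was 0.27, and of the members only Gsr and Gclc stood lower. Under the other settings that kept the probe it was the highest of the members. After thapsigargin it was 0.50, close to the 0.56 of Gclc. The change of -1.87 became 0.0744 with normexp correction and 0.58 after scaling to the spike-in probes. A was higher by 0.47, but lower with normexp correction (-0.92) and after centring (-0.03). The difference in log2 P/FM, Gclm minus Gclc, was 2.04 in control cells and -0.06 after thapsigargin. In control cells it was 1.21 without background subtraction and 0.18 with normexp correction.

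Gsr, which returns oxidised glutathione to its reduced form with NADPH, was measured by 3 probes. The first read 634 in P and 372 in FM in control cells and 298 and 675 after thapsigargin. The second read 177 and 67.9 in control cells and 78.9 and 124 after thapsigargin. The third read 288 and 151 in control cells and 142 and 275 after thapsigargin. On each of them P was the brighter fraction in control cells and FM after thapsigargin, with P between 2.03-fold and 2.24-fold lower and FM between 1.81-fold and 1.83-fold higher. After scaling to the spike-in probes P was instead higher (0.34 to 0.49 on the log2 scale) and FM lower (-0.07 to -0.06), and with normexp correction the FM changes lay between -0.96 and 0.21.

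For Gsr as a gene log2 P/FM was 1.03 ± 0.32 in control cells and -0.93 ± 0.27 after thapsigargin (SD, n = 3 probes). The change of -1.96 ± 0.07 varied far less between probes than the levels did, was -0.92 with normexp correction and became 0.48 after scaling to the spike-in probes. A changed by -0.11 ± 0.04, less than the SD of 0.18 between probes, and by 0.17 after that scaling.

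Nqo1, which reduces quinones and is often used as a readout of Nrf2 activity, read 387 in P and 155 in FM in control cells, and 236 in P and 202 in FM after thapsigargin. P was lower and FM higher, but P was higher after scaling to the spike-in probes (0.796), and FM was lower with that scaling (-0.55), with normexp correction (-0.72), with the processed signals (-0.31) and after centring (-0.39). log2 P/FM went from 1.32 to 0.22, a change of -1.10, which was -0.24 with normexp correction and became 1.35 after scaling to the spike-in probes. A changed by -0.17, within the SD of 0.18 between probes, and by 0.12 after that scaling. The percentile of 36.0 for the change in log2 P/FM placed Nqo1 near the middle of all coding probes.

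Txnrd1, the cytosolic selenoenzyme that keeps thioredoxin reduced, read 4170.0 in P and 1733 in FM in control cells, and 4209 in P and 2489 in FM after thapsigargin. P was nearly equal on both arrays (1.01-fold) and FM was 1.44-fold higher, although FM was lower after loess, after centring, with the processed signals and after scaling to the spike-in probes, with changes between -0.57 and -0.19, and P was lower after centring (-0.21) and with normexp correction (-0.03). log2 P/FM went from 1.27 to 0.76, the highest value of any member after thapsigargin. The change of -0.51 stood near the middle of all coding probes, at percentile 54.0, and turned positive with the processed signals (0.91), after loess (0.92), after centring (0.0387) and after scaling to the spike-in probes (1.94). A changed by 0.27, and by -0.12 with the processed signals and -0.23 after centring.

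The order of the members differed between the conditions. In control cells Gclc stood below the rest and Gclm above, by gaps larger than the SD of 0.29 between probes. The other 8 genes, from Gstm1 at 1.92 down to Gsr at 1.03, differed from their neighbours by less than that. Without background subtraction, however, Gclm lay below Gstm1, Gstm2 and Gstm3. With normexp correction only Gsr and Gclc lay below Gclm, and Gclc at 0.09 was close to Gsr at 0.17. After thapsigargin, Txnrd1, Gclc, Gstm1, Gclm, Gstm3 and Nqo1 lay between 0.76 and 0.22 with no gap above the SD of 0.28, followed by Gsta4 at -0.19, by Gstm2 and Gsr at -0.92 and -0.93, and by Gstm5 at -1.23. Txnrd1 stood above the next gene, Gstm1, by more than that SD after loess (1.36 and 0.88) and with the processed signals (1.37 and 0.91). In the change of log2 P/FM, Gclc and Txnrd1 each stood apart at the upper end, Nqo1, Gstm3, Gstm1, Gsta4, Gclm and Gsr followed without a gap above 0.32, and Gstm5 and Gstm2 stood lowest, or Gsr and Gclm after loess and with the processed signals. Gclc and Txnrd1 lay within 0.32 of each other after loess (1.13 and 0.92) and with the processed signals (1.04 and 0.91). With normexp correction Gclm (0.07) and Nqo1 (-0.24) stood above Txnrd1 (-0.38).

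Over all coding probes, bright probes changed more than dim ones on these arrays, a trend that the few member probes did not follow. The median change in log2 P/FM of all coding probes was -0.22 for a mean A of 4.5 to 7, -0.56 from 7 to 9, -1.10 from 9 to 11 and -1.68 above 11. In the same ranges the members had medians of -1.95 (2 probes), -1.60 (5 probes), -1.12 (3 probes) and -1.32 (3 probes). Set against coding probes within 0.5 of their own mean A, 9 of 13 member probes changed more strongly downwards, and the median difference was -0.82. Gclc and Txnrd1 lay above probes of the same brightness, by 1.16 and 1.06, and so did the first Gstm1 probe and Gstm3, by 0.34 each. The part of brightness in the changes of single members was not tested.

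Nrf2 and its regulators were higher in A on 8 of 8 probes, beside 77.9% of all coding probes. Nfe2l2 was higher in both fractions, with log2 P/FM of 0.32 in control cells and 0.85 after thapsigargin, a change of 0.53 ± 0.08 (SD, n = 2 probes), and A higher by 1.35 ± 0.03. Keap1 was higher in A by 0.91 and moved from 1.25 to -0.75 in log2 P/FM, a change that became 0.44 after scaling to the spike-in probes. Bach1, a repressor that competes with Nrf2 for its sites, changed by 0.64 in log2 P/FM and 0.63 in A, and the small Maf protein Maff by 1.50 in A. None of these changes turned sign under the settings run, apart from that of Keap1 in log2 P/FM. The members had a median change in A of -0.15. Without normalization 0 of 13 of their probes reached a gain of 1, while 5 of 8 probes for Nrf2 and its regulators did, beside 13.4% of all coding probes. The count for the regulators depends on the scaling. Over the settings run, the change in A ranged from 0.85 to 1.64 for Nfe2l2 and from 0.75 to 1.79 for Maff. After centring 2.5% of all coding probes reached a gain of 1.

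The other genes of the pathway were taken from a list of 80 glutathione, thioredoxin and Nrf2 genes, of which 66 genes with 86 probes passed the limit on both arrays. Their median change in log2 P/FM was -1.36, beside -1.60 for the members, and 70 of 86 probes were lower, although 22 were after scaling to the spike-in probes and 50 after loess. By the same thresholds 51 probes (59.3%, beside 45.2% of all coding probes) were sensitive, 10 (11.6%, beside 3.54%) resistant and 0 inducible, beside 11.0%. In A, 12 probes (14.0%, beside 13.4%) were higher by 1 or more and 1 (1.16%, beside 0.628%) was lower by 1 or more. In 6 probes (6.98%, beside 4.76%) both fractions were lower.

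The other glutathione S-transferases, 11 genes with 13 probes, had a median change of -1.51 in log2 P/FM and of 0.02 in A. Without normalization 10 of these probes were sensitive, beside 45.2% of all coding probes. None was lower in A by 1 or more, beside 0.628%. Mgst3, a membrane-bound transferase, went from 2.84 to -0.76 and Gsto1, of the omega class, from 2.21 to -1.08, and neither change turned sign under the settings run. Gstp1, the pi-class enzyme, had the largest loss of A among these transferases, at -0.85 over 2 probes, with a change of -1.98 in log2 P/FM that became 0.47 after scaling to the spike-in probes.

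The group of thioredoxins, peroxiredoxins and sulfiredoxin also holds Txnip, Txnl1, Txnrd2 and Txnrd3. Its median change in log2 P/FM was -1.89 over 21 probes, where Txnrd1 changed by -0.51. Without normalization 18 of the 21 probes were sensitive, beside 45.2% of all coding probes, a share that was 0.853% after scaling to the spike-in probes. Prdx4, the peroxiredoxin of the ER, went from 3.21 to -0.89, a change of -4.11. Txnip, which binds and inhibits thioredoxin, moved the other way, from 0.31 to 2.20, with A higher by 2.59. Neither of these changed sign under the settings run. In the group for haem, iron and superoxide, the cytosolic superoxide dismutase Sod1 went from 2.02 to -2.03, the ferritin heavy chain Fth1 changed by 0.63 from a control level of -4.60, and the ferritin light chain Ftl1 was lower in A by 1.19 on the log2 scale.

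The other genes for glutathione synthesis, import and breakdown, Gss, Ggct, Oplah, Chac1 and Slc3a2, were 5 genes with 6 probes and had a median change of -0.63 in log2 P/FM and 1.15 in A. The enzyme Chac1, which degrades glutathione, was higher in A by 3.16, and Slc3a2, a subunit of the cystine importer, by 1.94 ± 0.47 (SD, n = 2 probes). These gains kept their sign under the settings run. The genes for NADPH supply, on which Gsr, Nqo1 and Txnrd1 depend, had a median change of -0.85 in log2 P/FM. Without normalization 4 of their 7 probes were sensitive, beside 45.2% of all coding probes, and 4 were resistant, beside 3.54%. A probe can meet both thresholds. The glutathione peroxidases and glutaredoxins, 8 genes, had a median change of -2.45 over 9 probes, and here Glrx and Gpx8 changed by -0.99 and -0.86 in A. The remaining detoxification genes had a median change of -0.39 in log2 P/FM over 14 probes.

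**Figure D4:**
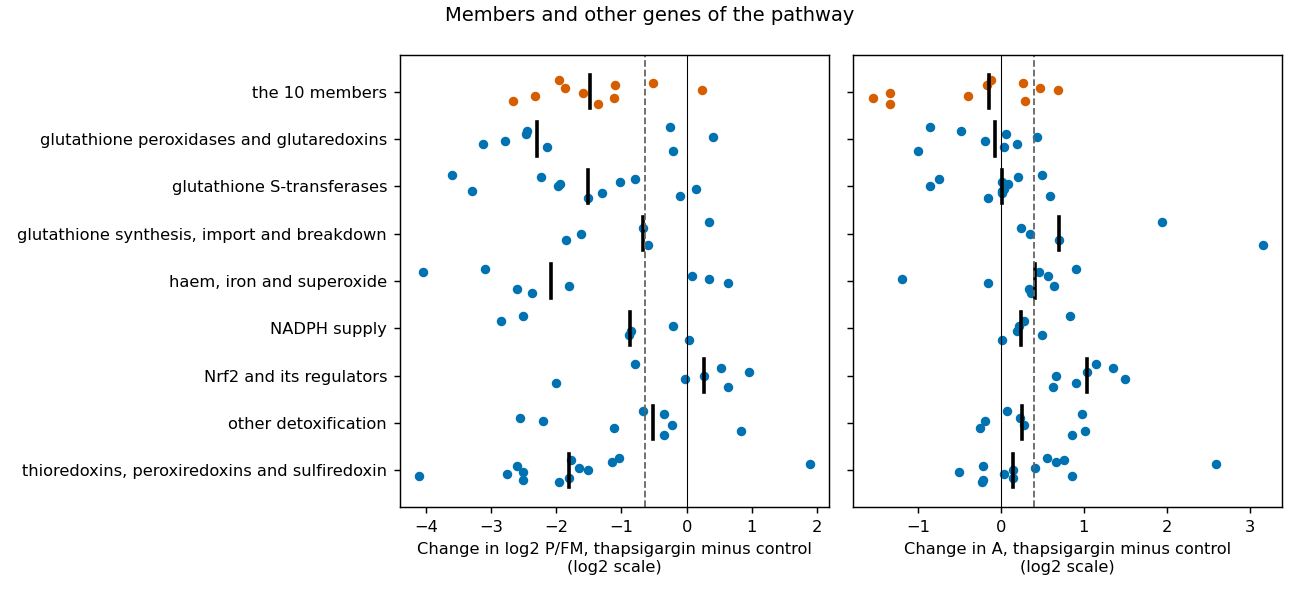
Change in log2 P/FM (left) and in A (right), thapsigargin minus control, for the 10 members and for 66 other genes of the pathway by role, 1 point per gene; thick bars are medians over genes and dashed lines the medians of all coding probes. Gstm1, Gstm3 and Gsta4 lie at or below -1.34 in A, beyond every other gene shown, as plotted without normalization. Their sign held under every setting run. With normexp correction, however, their changes of -1.48, -1.59 and -1.52 were close to the median of -1.47 of all coding probes. That median is over all 26723 coding probes, including those that fall below the limit on A without normexp correction. Most changes in log2 P/FM to the left of 0 turn positive after scaling to the spike-in probes.

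The promoters of the members were searched for the core of the antioxidant response element, TGACNNNGC, on both strands, in windows from 250 bases before to 50 bases after the start of the gene (RefSeq, GRCm38.p6). Such windows were at hand for 7 of the 10 members, with 10 windows in all. The motif stood in 3 of the 10, and in 12.39% of 32851 promoters, and in 21 of 101 windows of the pathway list. The genes that hold it, Gstm5, Gclm and Txnrd1, are shown with 20 bases on each side, and capitals mark the match. They lie at chr3:107895792-107895840, chr3:122245403-122245451 and chr10:82859094-82859142, all on the plus strand.
Gstm5, match 42 bases before the start: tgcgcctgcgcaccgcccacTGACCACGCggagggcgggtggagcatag
Gclm, match 134 bases before the start, motif on the opposite strand: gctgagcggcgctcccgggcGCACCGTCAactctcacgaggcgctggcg
Txnrd1, match 92 bases before the start, motif on the opposite strand: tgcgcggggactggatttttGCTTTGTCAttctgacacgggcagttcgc

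In the measurements above these 3 genes had little in common, with changes in A of -0.39 for Gstm5, 0.47 for Gclm and 0.27 for Txnrd1, and of -2.33, -1.87 and -0.51 in log2 P/FM. The AP-1 site TGACTCA, which can overlap the first motif, stood in 5.2% of all promoters and in 1 member window, that of Gstm5, 176 bases before the start. TGATGNAA, a core of C/EBP-ATF composite elements, stood in 3.97% of all promoters and in none of the 10 member windows. A match is a run of letters in this window only, and no binding was measured.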

How the data were processed

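Translation efficiencies were taken from 2 two-colour arrays of 44K type, 1 of control and 1 of thapsigargin-treated NIH3T3 cells, on which 300 ng of RNA in total (P and FM) had been labelled. The pixel intensity of spots and of their surroundings came, per the file headers, from Feature Extraction 10.7.1.1 (10.7.1 in the submitters' processing notes), without normalization. The authors also deposited log2 values of P/FM, of which 99.991% (control) and 100% (thapsigargin) of 10768 coding accessions equalled the means computed here within 0.001. The processed signals and the log10 ratio of Feature Extraction in the deposited files are dye-normalized.

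From the mean signal of a spot its median local background was taken off, and results below 0.5 were set to 0.5, which is the method the study names for mouse. The 295 spots (0.68%) flagged as outliers on either array, none of a member, were left out, and spots of a probe were averaged. Comparisons cover probes with an NM accession and A above 4.5 on both arrays. The limit was applied to the values of each setting. It let 14657 coding probes pass in the main setting, 26723 with normexp correction or without background subtraction, and 18035 with processed signals. Groups came from the labels. With 1 array per condition no test was made, and 2 arrays limit the precision of every value. Steps were tested on simulated data. Named were all members, Nfe2l2, Keap1 and, in the pathway list, the 4 largest rises and falls in each measure among genes with A above 7 and every probe well above background. Members, lists and thresholds were chosen with earlier results of these data known. Work was done in Python 3.11.15, pandas 2.3.3 and limma 3.58.1 for R 4.3.3. The alternatives were processed signals, loess, centring, scaling to spike-ins, other limits on A, well-above-background probes only, outliers kept, median spot signals, normexp correction (offset 50), signals without background subtraction, genes as the unit and the authors' log2 table.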

Additional observations from a re-analysis of the deposited data

How the results depend on the processing

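No paired analysis was possible because each condition was 1 array, and for the same reason no sample could be left out. The member probes had a median change in log2 P/FM of -1.60, which was -0.90 with normexp correction, -0.92 with processed signals, -0.83 after loess, -1.05 after centring and 0.85 after scaling to the spike-in probes. The 11 sensitive probes (all coding probes 45.2%) became 7 with normexp correction (13.3%), 7 after loess (27.1%) and 0 after spike-in scaling (0.853%). The 0 resistant probes (3.54%) became 1 with processed signals (7.93%), 1 after loess (4.8%), 2 after centring (3.65%) and 11 after spike-in scaling (30.2%). The 0 inducible probes (11.0%) became 1 with processed signals (16.1%) and 1 after loess (16.7%). The median change in A of -0.15 was -0.84 with normexp correction, -0.53 with processed signals, -0.65 after centring and 0.14 after spike-in scaling. Relative to all coding probes, the members' median change in A was -0.55, and 0.64 with normexp correction, under which all coding probes had a median change of -1.47. The values for all coding probes with normexp correction are over 26723 probes, since each of them then passed the limit on A. The causes were not tested.

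Spike-in scaling turned the change in log2 P/FM of Gstm1 (1.08), Gstm3 (1.32), Gstm5 (0.11), Gsta4 (0.85), Gclm (0.58), Nqo1 (1.35), Txnrd1 (1.94) and Gsr (0.48). It also turned the change in A of Nqo1 (0.12) and Gsr (0.17), and log2 P/FM with thapsigargin of Gstm2 (1.52), Gstm5 (1.21), Gsta4 (2.25) and Gsr (1.51). Normexp correction turned Gclm in log2 P/FM (0.0744) and in A (-0.92). Processed signals turned Gstm3 (0.0836) and Txnrd1 (0.91) in log2 P/FM, Gstm2 (-0.11) and Txnrd1 (-0.12) in A, and the control level of Gclc (-0.15). Loess turned Gstm3 (0.029), Txnrd1 (0.92) and the control level of Gclc (-0.27). Centring turned Txnrd1 (0.0387) in log2 P/FM, Gclm (-0.0287), Gstm2 (-0.22) and Txnrd1 (-0.23) in A, and Gsta4 with thapsigargin (0.0533). Of the values for single genes under alternatives, 141 moved by less than the SD between probes, 110 by more with the same sign, and 29 turned sign. The lower A of Gstm1, Gstm3 and Gsta4 did not turn under any setting. Relative to the median of all coding probes, however, the changes with normexp correction were 0.16 and -0.17 (Gstm1 probes), -0.12 (Gstm3) and -0.04 (Gsta4). That median is over 26723 coding probes. The number of member probes lower by 1 or more was counted after the data were seen. It was 5 with normexp correction (all coding probes 61.3%), 3 after spike-in scaling (0.232%) and 4 otherwise (0.191% to 6.16%).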
